A study of Mus musculus with 4 samples.

Results

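Granzymes A, K and M, encoded by Gzma, Gzmk and Gzmm, were followed through 4 single-cell RNA libraries of mouse B16-F10 melanoma. The genes were found by their symbols, and these 3 of the 28692 genes of the count tables each had 1 row. Mice were of strain C57BL/6 and carried tumours of B16-F10, a melanoma cell line of the same strain. On day 3 after implantation they received Pmel-1 CD8 T cells, which carry a transgenic receptor for the melanocyte antigen gp100 and had been transduced with either IRF4-GFP or GFP alone. On day 14 the transferred Pmel-1 cells and the endogenous CD45+ tumour-infiltrating cells were sorted from each arm, giving a transferred IRF4, a transferred control, an endogenous IRF4 and an endogenous control library. The endogenous cells of both arms were not transduced, and all 4 groups came from tumours that had received Pmel-1 cells. The transferred cells had also been through culture and transduction, so that origin and handling cannot be told apart. With 1 library in each group no difference was tested. All intervals below are exact 95% intervals that cover counting error only.

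Granzymes are serine proteases that cytotoxic lymphocytes store in granules and release, with the pore-forming protein perforin, at the contact with a target cell. Granzymes A and K are tryptases, which cut after basic residues, and granzyme M, also called met-ase, cuts after methionine and similar residues. Gzma is a typical product of NK cells and of some effector CD8 T cells, Gzmk marks a class of memory and exhausted CD8 T cells, and Gzmm is best known from NK and other innate-like lymphocytes. IRF4 is a transcription factor induced by antigen receptor signals.

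Gzma and Gzmk lie next to each other on chromosome 13 and Gzmm lies apart on chromosome 10. In GENCODE vM21, on mm10, Gzma (ENSMUSG00000023132) spanned chr13:113093825-113100981 on the minus strand. Gzmk (ENSMUSG00000042385) spanned chr13:113171608-113225908 on the same strand, and the 70626 bases between them held 3 annotated genes, 0 of them protein coding. Gzmm (ENSMUSG00000054206) spanned chr10:79689020-79695261 on the plus strand. The first transcript of each gene had 5 exons. A long transcript of Gzmk overlapped Esm1, on the opposite strand at chr13:113209659-113218098, and the sources used here do not say whether counting used strand. The promoters are shown because the neighbours Gzma and Gzmk were highest in different cell types below. Between the arms both were higher with IRF4 in several types of endogenous T cell. They are RefSeq sequences on GRCm38.p6, each of 300 bases from 250 before to 50 after the start, written along the gene: chr13:113100932-113101231 for Gzma, chr13:113180916-113181215 for Gzmk and chr10:79688770-79689069 for Gzmm. Capitals mark matches, on either strand, to 5 motifs that were chosen after the sequences had been seen.
Gzma: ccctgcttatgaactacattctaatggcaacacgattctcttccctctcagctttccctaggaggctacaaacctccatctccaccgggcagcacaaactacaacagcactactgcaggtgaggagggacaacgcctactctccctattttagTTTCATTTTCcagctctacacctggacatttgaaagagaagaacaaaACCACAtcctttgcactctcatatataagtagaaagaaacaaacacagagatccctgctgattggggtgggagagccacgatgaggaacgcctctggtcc
Gzmk: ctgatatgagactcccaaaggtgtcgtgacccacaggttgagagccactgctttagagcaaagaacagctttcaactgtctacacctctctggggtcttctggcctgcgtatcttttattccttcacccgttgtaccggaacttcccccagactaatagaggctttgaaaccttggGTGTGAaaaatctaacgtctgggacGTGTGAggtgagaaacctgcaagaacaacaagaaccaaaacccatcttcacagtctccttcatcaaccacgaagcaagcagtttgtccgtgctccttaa
Gzmm: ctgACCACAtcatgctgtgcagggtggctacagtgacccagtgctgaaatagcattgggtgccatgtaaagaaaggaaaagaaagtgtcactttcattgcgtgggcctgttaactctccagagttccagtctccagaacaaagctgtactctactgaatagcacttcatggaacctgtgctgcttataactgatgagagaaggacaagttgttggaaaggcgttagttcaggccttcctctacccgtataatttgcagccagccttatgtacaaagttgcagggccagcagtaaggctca
The T-box letters GTGTGA stood at 2 places in the Gzmk window, 74 and 49 bases before the start, and in 14.5% of all 32851 promoters of the table. The RUNX letters TGTGGT stood, on the other strand, 50 bases before the start in Gzma and 247 before it in Gzmm, against 16.8% of promoters. The IRF letters GAAANNGAAA, which belong to the family of factors that includes IRF4, stood on the other strand 97 bases before the start of Gzma and in 3.44% of promoters. The ETS letters GAGGAAGT (3.20% of promoters) and the AP-1 letters TGANTCA (7.81%) were in none of the 3 windows. No 2 of these motifs overlapped in the windows. A match describes these letters only.

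The libraries held 715, 3640, 6981 and 6375 barcodes in the order given above, and 15132 of all 17711 passed filters on UMIs (unique molecules counted), genes and mitochondrial share. Median depths of kept cells were 16370, 19963, 8437 and 10521 UMIs. Cells were gated on marker UMIs without use of the 3 granzymes. CD8 T cells numbered 482, 2089, 1985 and 686, which was 84.3%, 83.1%, 31.2% and 12.1% of kept cells. The endogenous libraries also held 999 and 519 NK cells. Cells with markers of more than 1 lineage made up 4.57% to 10.0% of kept cells and were left out as mixed. From 0 to 18 barcodes were shared by any pair of libraries. The deposited Irf4 row gave 28.1 CPM (UMIs per 1000000 UMIs of the gated cells; 25.3 to 31.1) in transferred IRF4 CD8 T cells and 25.9 CPM (24.7 to 27.1) in transferred control cells. The sources used here do not say whether that row counts vector transcripts, so it does not check the label.

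NK cells held most of the Gzma transcripts of the sorted CD45+ cells. Their level was 5913 CPM (5851 to 5975) in the endogenous IRF4 library and 6125 CPM (6037 to 6215) in the endogenous control library. They made up 15.7% and 9.14% of kept cells there and held 73.5% and 82.8% of all Gzma UMIs. With every cell thinned to 2000 UMIs, 89.0% and 86.2% of NK cells had a Gzma UMI, and without thinning 92.7% and 89.4% did. The next highest level was that of double-negative T cells with NK receptors (T cells without Cd4 and CD8 UMIs beyond the gate and with at least 2 UMIs of Ncr1 and Klrb1c), at 1359 CPM in 230 cells and 1111 CPM in 120 cells. CD8 T cells came below this in both endogenous libraries. CD4 T cells had 260 CPM in endogenous IRF4, above CD8 T cells, and 44.6 in endogenous control. Regulatory T cells had 88.5 and 112 CPM, the latter above CD8 T cells. The Gzma level of CD8 T cells was 45.6 CPM in transferred IRF4, 44.8 in transferred control, 158 in endogenous IRF4 and 99.98 in endogenous control cells. Gzma in NK cells was thus 37.4 times (36.3 to 38.5) that of CD8 T cells in the IRF4 library and 61.3 times (57.5 to 65.4) in the control library. Over the alternative settings these ratios ranged from 15.5 (cells without a cycle gene UMI) to 62.1 (without CD8 T cells that had an Ncr1 or Klrb1c UMI) in the IRF4 library, and from 44.4 (mean over cells) to 100.6 (without the top 1% of cells) in the control library. In these NK to CD8 comparisons 36.4% and 32.2% of all genes measured passed a ratio of 1.5 in either direction, 19% and 18.1% higher and 17.4% and 14.1% lower in NK cells.

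Gzmk had the opposite distribution and was held by endogenous CD8 T cells. Its level in CD8 T cells was 405 CPM (398 to 412) in endogenous IRF4, 133 (126 to 141) in endogenous control, 22.8 (20.3 to 25.5) in transferred IRF4 and 7.22 (6.59 to 7.89) in transferred control cells. No 2 of these intervals overlapped. CD8 T cells held 90.5% of the Gzmk UMIs of the endogenous IRF4 library and 61.1% of those of the endogenous control library, and mixed cells held 6.33% and 29.7%. NK cells had 12.0 and 17.8 CPM, which was 0.0297 and 0.133 times the CD8 T level. Without the top 1% of cells these ratios were 0.0205 and 0.0480. CD4 T cells had 58.0 and 28.1 CPM, and monocytes or macrophages had 2.08 and 0.269 CPM. After thinning, 42.9% and 21.7% of endogenous CD8 T cells had a Gzmk UMI, against 0.377% and 0.0590% of monocytes or macrophages, which should lack the gene. Without thinning the CD8 T shares were 68.4% and 47.4% at median depths of 11061 and 8841 UMIs, and those of monocytes or macrophages 2.62% and 0.469% at 11469 and 14394 UMIs.

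Gzmm was scarce in every gated type. CD8 T cells had 1.82 CPM (1.16 to 2.70) in transferred IRF4, 2.71 (2.33 to 3.13) in transferred control, 3.89 (3.26 to 4.60) in endogenous IRF4 and 7.39 (5.80 to 9.30) in endogenous control cells. NK cells had 8.36 (6.21 to 11.0) and 7.71 CPM (4.89 to 11.6). The highest level was that of double-negative T cells with NK receptors, at 10.0 (5.82 to 16.0) and 14.8 CPM (7.89 to 25.3), whose intervals overlapped those of NK cells. Each of these values rests on 13 to 183 UMIs. The Gzmm levels lay near or under the minimum of 10 CPM set for a call, and no arm difference of Gzmm was called.

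**Figure D1:**
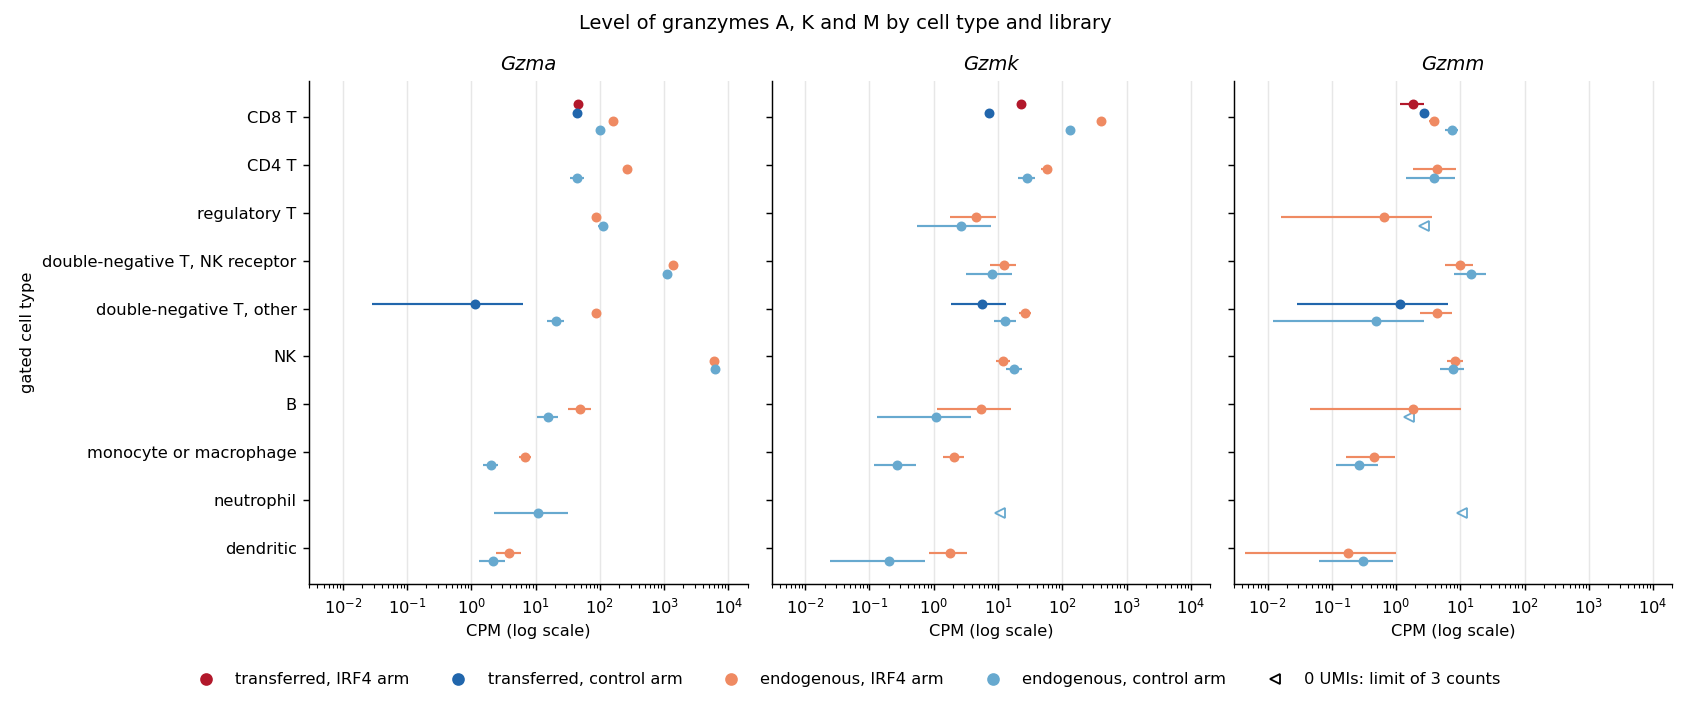
Level of Gzma, Gzmk and Gzmm (CPM, log axis) in each gated cell type with at least 50 cells, by library; bars are exact 95% counting intervals and open triangles mark the limit of 3 counts where no UMI was seen. Gzma is highest in NK cells (5913 and 6125 CPM) and Gzmk in endogenous CD8 T cells (405 and 133 CPM).

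Between the transferred arms, Gzmk was higher with IRF4 and Gzma was not. Gzmk had 301 UMIs in 482 IRF4 cells and 488 UMIs in 2089 control cells, or 22.8 against 7.22 CPM, a ratio of 3.16 (2.73 to 3.65). By the rule used for every call here, a ratio of at least 1.5 either way, 6.7% of the 7498 genes measured in this comparison passed, 3.51% higher and 3.19% lower in the IRF4 arm. The share of cells with a Gzmk UMI after thinning was 8.30% (5.99 to 11.1) against 2.64% (1.99 to 3.42), and 21.4% against 10.8% without thinning. Gzma stood at 45.6 against 44.8 CPM, a ratio of 1.02 (0.931 to 1.11). Its share after thinning was 3.11% against 4.504%, and those intervals overlapped. Gzmm was 1.82 against 2.71 CPM, a ratio of 0.672 (0.420 to 1.03), under the minimum for a call. The B, myeloid and dendritic cells of these libraries, 19 and 61 cells, had 0 UMIs of all 3 genes, which allows up to 14.3 and 5.94 CPM. In the transferred CD8 T cells the 8 markers of monocytes or macrophages, 0 of them at 0, summed to 124 CPM with IRF4 and 258 in controls. Ncr1 and Klrb1c summed to 1.89 and 3.67 CPM, with Ncr1 at 0 in the control cells, and the part of these markers was not tested.

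The transferred Gzma level came from few cells. In the IRF4 library 36 of 482 CD8 T cells had any Gzma UMI, 3 cells held over 50% of its 602 UMIs and the highest held 130. In the control library 16 of 2089 cells held that share of 3030 UMIs, with a highest cell of 188. The top 1% of cells held 71.6% and 58.3% of the UMIs. Leaving those cells out in each library gave a Gzma ratio of 0.689, and leaving out CD8 T cells with an NK receptor UMI gave 0.646. The 6 transferred IRF4 cells with an Ncr1 or Klrb1c UMI held 49.3% of the Gzma UMIs, and the 140 such control cells held 29.4%. Gzmk was spread more widely, with 18 and 38 cells holding over 50% of the UMIs, and its ratio without the top 1% of cells was 3.74.

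Among endogenous CD8 T cells both tryptases were higher in the IRF4 arm. Gzmk stood at 405 against 133 CPM, a ratio of 3.04 (2.87 to 3.22), with 13969 and 1315 UMIs. Gzma stood at 158 against 99.98 CPM, a ratio of 1.58 (1.48 to 1.69), with 5454 and 987 UMIs. Of the 7690 genes measured 8.53% passed the rule, 3.26% higher and 5.27% lower. The thinned share with a Gzmk UMI was 42.9% (40.7 to 45.1) against 21.7% (18.7 to 25.0), and that with a Gzma UMI was 10.9% (9.55 to 12.3) against 8.75% (6.74 to 11.1), where the intervals overlapped. Among cells with a UMI the median count of Gzmk was 7 against 3, and that of Gzma was 2 in both. Gzmm was lower with IRF4, at 3.89 against 7.39 CPM, a ratio of 0.526 (0.392 to 0.709), and was too low in both libraries for a call.

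NK receptor UMIs moved with the endogenous Gzma difference. Ncr1 and Klrb1c, the NK markers of the gates, summed to 18.9 CPM (17.5 to 20.4) in endogenous IRF4 CD8 T cells and to 5.67 CPM (4.28 to 7.37) in control cells, with neither marker at 0 in either library. In NK cells the sums were 1299 and 1401 CPM. The 136 IRF4 cells with such a UMI, 6.85% of the CD8 T cells, held 43.9% of the Gzma UMIs at 1009 CPM. The 29 control cells with one, 4.23%, held 17.4% at 367 CPM. In the remaining cells Gzma was 95.3 CPM (91.9 to 98.7) against 86.7 (80.8 to 92.8), a ratio of 1.10 that was no longer called. A limit of 5% on mitochondrial UMIs also ended the call, at 1.33. The Gzmk UMIs lay elsewhere, with 3.64% and 2.59% of them in the cells with an NK receptor UMI. Gzmk in the remaining cells was 419 against 136 CPM. Markers of monocytes or macrophages summed to 86.1 and 174 CPM in these CD8 T cells, and their part was not tested.

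In NK cells neither tryptase was called between the arms. Gzma was 5913 against 6125 CPM, a ratio of 0.965 (0.948 to 0.983). Gzmk was 12.0 against 17.8 CPM, a ratio of 0.678 (0.469 to 0.985) from 72 and 53 UMIs. Neither reached the ratio of 1.5, or its inverse, that 4.09% of the 7744 genes measured passed (1.78% higher and 2.31% lower). In the control NK cells 3 cells held over 50% of the 53 Gzmk UMIs, and in the IRF4 NK cells 18 cells did. Over the alternative settings the NK ratio of Gzmk went from 0.457 (UMIs of B cells subtracted) to 1.36 (without the top 1% of cells), on both sides of 1. Gzmm was 8.36 against 7.71 CPM, a ratio of 1.08 (0.650 to 1.86). Whether the arm differences of NK and CD8 T cells differ was not tested.

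Among other endogenous T cells both tryptases were higher with IRF4 in CD4 T cells and in double-negative T cells under the NK gate. These other double-negative T cells had fewer than 2 UMIs of Ncr1 and Klrb1c together, and the gate did not use other NK receptor genes. In CD4 T cells (350 and 252 cells) Gzma was 260 against 44.6 CPM, a ratio of 5.83 (4.53 to 7.60), and Gzmk was 58.0 against 28.1 CPM, a ratio of 2.07 (1.44 to 3.003). Here 17.6% of genes passed the rule, 10.1% higher and 7.46% lower. The Gzma values rested on few cells: 3 IRF4 cells held over 50% of 485 UMIs, and 1 control cell held 61 of 70. After thinning, 6.29% (3.98 to 9.36) against 1.59% (0.436 to 4.03) of CD4 T cells had a Gzma UMI. A limit of 5% on mitochondrial UMIs ended the Gzmk call (1.34), and without the top 1% of cells the Gzma ratio was 22.4. Ncr1 and Klrb1c summed to 39.2 against 14.7 CPM in these CD4 T cells, with neither at 0, and without the cells that had a UMI of them the Gzma ratio was 12.5 and that of Gzmk 2.02. In the other double-negative T cells (541 and 350 cells) Gzma was 85.6 against 20.7 CPM, a ratio of 4.14 (2.99 to 5.85). Gzmk was 26.1 against 12.98 CPM, a ratio of 2.01 (1.29 to 3.23). Of the genes measured 8.7% passed the rule, 5.35% higher and 3.35% lower. Few cells carried these values too: 4 and 2 cells held at least 50% of the 275 and 43 Gzma UMIs, and 7 and 4 cells that of Gzmk. After thinning, 6.16% (4.28 to 8.54) against 2.29% (0.995 to 4.47) had a Gzma UMI. For Gzmk the shares were 3.73% (2.29 to 5.70) and 2.29% (0.995 to 4.47), and the intervals overlapped for both genes. In cells without a cycle gene UMI the Gzmk ratio was 1.38, and with gates at 4 UMIs the Gzma ratio was 1.58. Ncr1 and Klrb1c, again with neither at 0, summed to 24.6 against 21.2 CPM here. Klra8, another NK receptor gene, was 4.98 against 0.481, the latter under the limit of 3 counts at 1.44 CPM. Klrc2 and Klre1, also NK receptor genes, were 118 against 105 and 110 against 86.1, and Itga2 was 6.54 against 6.73. Without the cells that had an Ncr1 or Klrb1c UMI the ratios were 3.03 for Gzma and 1.93 for Gzmk. Gzmm in these cells had 14 UMIs against 1, a ratio of 9.07 (1.38 to 383) under the minimum for a call. In double-negative T cells with NK receptors no call was made for any of the 3 genes, while 16.2% of genes passed the rule, 7.5% higher and 8.7% lower. Their Gzma ratio was 1.22 (1.13 to 1.32), and with gates at 1 UMI it was 1.57. Their Gzmk ratio was 1.55 from 21 and 7 UMIs, which the 1 CPM added to both sides brought under the rule, and it ranged from 0.866 to 4.93 over the settings. Regulatory T cells, 117 and 60, were too few for a comparison, and 122 of the 124 Gzma UMIs of the control cells lay in 1 cell.

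**Figure D2:**
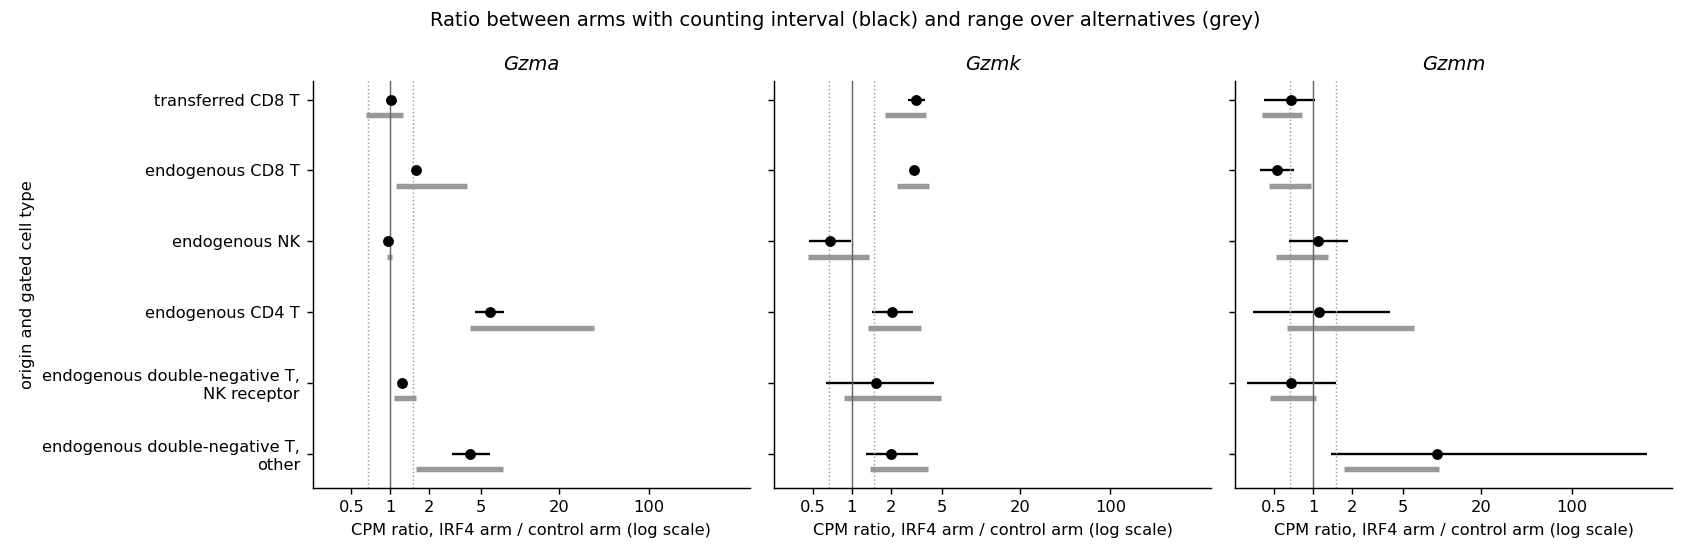
Ratio of CPM, IRF4 arm over control arm (log axis), for each gene and gated cell type; points and black bars are the ratio and its 95% counting interval, grey bars the range over the alternative settings, and dotted lines the ratio of 1.5 and its inverse. Gzmk stays above 1.5 over all settings in both CD8 T comparisons (1.81 to 3.74 and 2.23 to 3.96), and Gzma crosses it in endogenous CD8 T cells (1.10 to 3.91).

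Transferred CD8 T cells had less of both tryptases than the endogenous CD8 T cells of the same arm. For Gzmk the ratio of transferred to endogenous was 0.0563 (0.0500 to 0.0631) with IRF4 and 0.0542 (0.0487 to 0.0602) for controls. In cells thinned to 2000 UMIs these values were 0.134 and 0.111, and in cells without a cycle gene UMI 0.119 and 0.147, still past the rule. For Gzma the ratio was 0.288 (0.265 to 0.314) and 0.448 (0.417 to 0.482). The IRF4 value for Gzma was 0.140 without the top 1% of cells and 0.166 in cells without a cycle gene UMI. The control value for Gzma was no longer past the rule in thinned cells (0.749), as a mean over cells (0.731) and in cells without a cycle gene UMI (0.909). In these comparisons 15.5% and 18.7% of the genes measured passed the rule, 5.7% and 6.29% higher and 9.82% and 12.4% lower in the transferred cells. For Gzmm, under the minimum for a call, the ratios were 0.468 and 0.366. In the thinned cells 8.30% of transferred and 42.9% of endogenous IRF4 CD8 T cells had a Gzmk UMI, and 2.64% and 21.7% did in the control arm. The transferred cells share an antigen receptor and were sorted apart, so the difference cannot be told apart from receptor, culture or sort.

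Cells with a UMI of 1 tryptase outnumbered cells with both, while most endogenous CD8 T cells with Gzma also had Gzmk at full depth. After thinning, 37.2% of endogenous IRF4 CD8 T cells had Gzmk alone, 5.19% Gzma alone and 5.69% both, and the control values were 18.8%, 5.83% and 2.92%. Without thinning they were 47.4%, 5.44% and 21.0% in the IRF4 library and 35.1%, 4.81% and 12.2% in the control library, so that 79.4% and 71.8% of cells with a Gzma UMI had a Gzmk UMI. In NK cells 87.6% and 83.3% had Gzma alone and 0.201% and 0.00% Gzmk alone. Within CD8 T cells, however, a cell with a Gzma UMI had a Gzmk UMI more often than a cell without. The shares were 46.7% (7 of 15 cells) against 7.07% in transferred IRF4, 12.8% (12 of 94) against 2.16% in transferred control, 52.3% against 41.8% in endogenous IRF4 and 33.3% against 20.6% in endogenous control cells. The counting intervals of the 2 shares did not overlap in the first 3 libraries and did in the fourth (21.7 to 46.7 against 17.5 to 24.0).

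**Figure D3:**
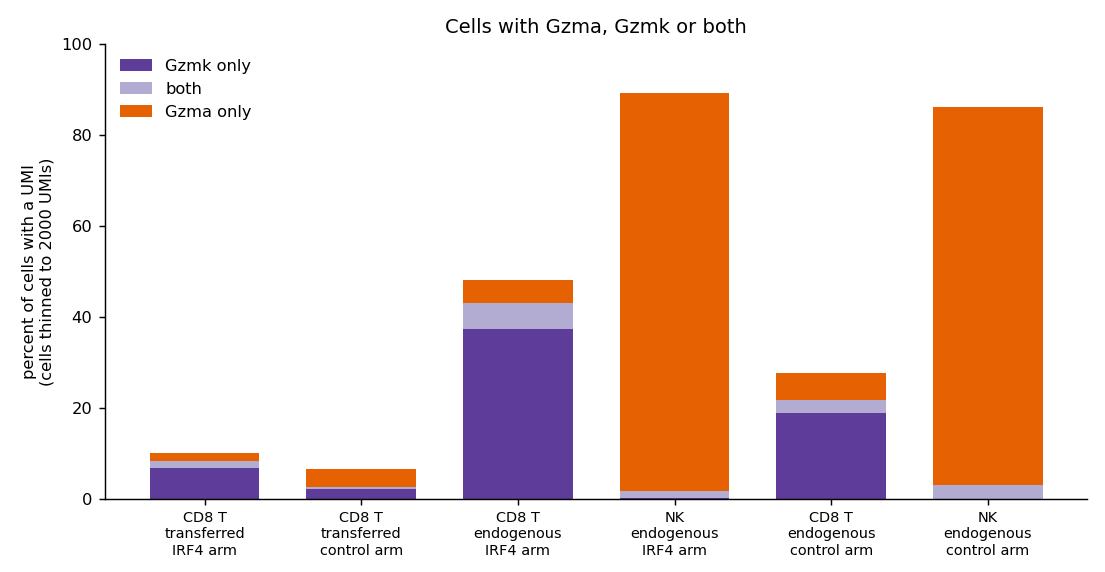
Percent of CD8 T and NK cells with a UMI of Gzmk alone, of both genes or of Gzma alone, after thinning each cell to 2000 UMIs. Endogenous CD8 T cells hold mostly Gzmk (37.2% and 18.8% alone) and NK cells mostly Gzma (87.6% and 83.3% alone).

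How evenly the 2 tryptases were spread over cells differed between NK and CD8 T cells. Among NK cells 191 of 999 and 93 of 519 cells were needed to hold over 50% of the Gzma UMIs. In endogenous CD8 T cells 28 of 1985 and 9 of 686 cells did so. For Gzmk in these CD8 T cells it took 258 and 66 cells. The top 1% of endogenous CD8 T cells held 41.0% and 45.6% of the Gzma UMIs and 7.27% and 10.3% of the Gzmk UMIs. In NK cells the order was reversed. There the top 1% held 7.19% and 12.5% of the Gzma UMIs and 34.7% and 67.9% of the few Gzmk UMIs (72 and 53). Cells with 20 or more Gzma UMIs were 60.4% and 56.6% of NK cells and 3.12% and 2.19% of endogenous CD8 T cells.

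**Figure D4:**
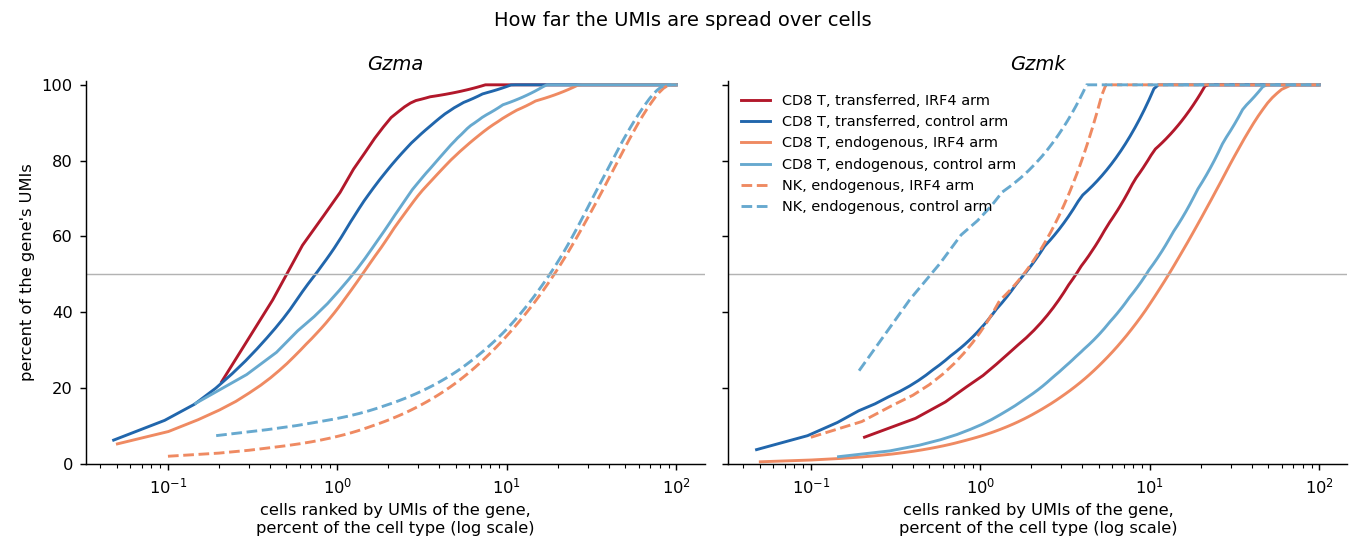
Percent of the UMIs of Gzma (left) and Gzmk (right) held by the cells with the most UMIs, against the percent of cells of the type on a log axis; the grey line marks 50%. Gzma in CD8 T cells lies in few cells, with 41.0% to 71.6% of UMIs in the top 1%, and in NK cells it is spread widely (7.19% and 12.5%).

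CD8 T cells were next split by whether they had a UMI of a state marker, within each library. Cells with a UMI of Gzmb, the main granzyme of activated killer T cells, had more Gzmk in 4 of 4 libraries, by ratios of 2.42, 2.12, 2.35 and 1.93. They also had more Gzma in 4 of 4, by 3.78 to 13.5 in 3 libraries, while the transferred IRF4 cells without Gzmb held 1 Gzma UMI against 601 in those with it, a ratio of 137 (24.6 to 5432). Cells with Tcf7, a factor of naive, memory and stem-like T cells, had less Gzmk in 4 of 4 libraries, by ratios of 0.154, 0.185, 0.493 and 0.486. Eomes, a T-box factor, went with more Gzmk in the 3 libraries with enough cells (1.28 to 2.74). Klrg1, a receptor of effector cells, went with more Gzmk in the 2 endogenous libraries, at 606 against 280 CPM and 213 against 122 CPM. After thinning, 56.3% of endogenous IRF4 CD8 T cells with Eomes and 26.8% of those without had a Gzmk UMI. In endogenous control cells these shares were 23.8% (18.3 to 30.1) and 20.8% (17.2 to 24.7). In transferred control cells they were 4.375% (2.41 to 7.23) and 2.32% (1.67 to 3.13). The intervals overlapped in both control libraries.

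The Gzma level was lower in cells with Pdcd1, the gene of the inhibitory receptor PD-1, in 4 of 4 libraries. The ratios of cells with to cells without lay between 0.133 in endogenous IRF4 and 0.662 in transferred IRF4 cells. In the transferred IRF4 library the thinned shares with a Gzma UMI were nearly level, at 3.14% with Pdcd1 and 3 of 100 cells without, whereas in transferred control cells they were 2.90% and 9.12%. Tox, a factor of exhausted T cells, went with less Gzma in the other 3 libraries (0.166 to 0.259) and with more in transferred IRF4 cells (2.42). Havcr2 encodes the inhibitory receptor TIM-3. It went with less Gzma in endogenous cells (0.261 and 0.284) and with more in transferred cells (7.09 and 2.45). In transferred IRF4 cells, 2 cells with Havcr2 and 1 cell without held a large share of the 444 and 158 Gzma UMIs. The thinned shares there were 7.69% (3.75 to 13.7) and 1.42% (0.463 to 3.28), and the intervals did not overlap. In transferred control cells they were 7.60% (4.71 to 11.5) and 4.06% (3.20 to 5.07), and the intervals overlapped. Gzmk had no single direction with Pdcd1, with ratios of 1.58, 0.335, 1.71 and 1.25. The number of UMIs in a cell moved with most markers: in endogenous IRF4 CD8 T cells the median depth was 16595 UMIs with Pdcd1 and 6679 without.

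Gzmm levels in endogenous CD8 T cells were lower in cells with Pdcd1, Havcr2 or Tox than in cells without. With Pdcd1 it was 1.71 CPM and without 18.0 in the IRF4 arm, and 3.82 and 17.7 in the control arm. With Tox it was 1.9995 CPM and without 15.1 in the IRF4 arm, and 5.28 and 14.4 in the control arm, where the cells with Tox held 40 of the 73 UMIs. With Tcf7 it was 11.4 CPM and without 1.59 in the IRF4 arm, and 13.96 and 4.32 in the control arm. Ly6c2, a surface marker of memory and interferon-exposed T cells, went with more Gzmm in 3 of 4 libraries beyond the counting interval (2.56, 3.68 and 3.14), and the fourth had a ratio of 2.06 (0.506 to 18.1). Transferred control cells differed for Tcf7, with 2.30 CPM with and 6.58 without. The counts behind these levels are small, and the thinned shares with a Gzmm UMI ranged up to 3.16% of endogenous control cells without Pdcd1. The interval of that share (1.53 to 5.74) overlapped that of endogenous control cells with Pdcd1, at 1.08% (0.295 to 2.74).

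**Figure D5:**
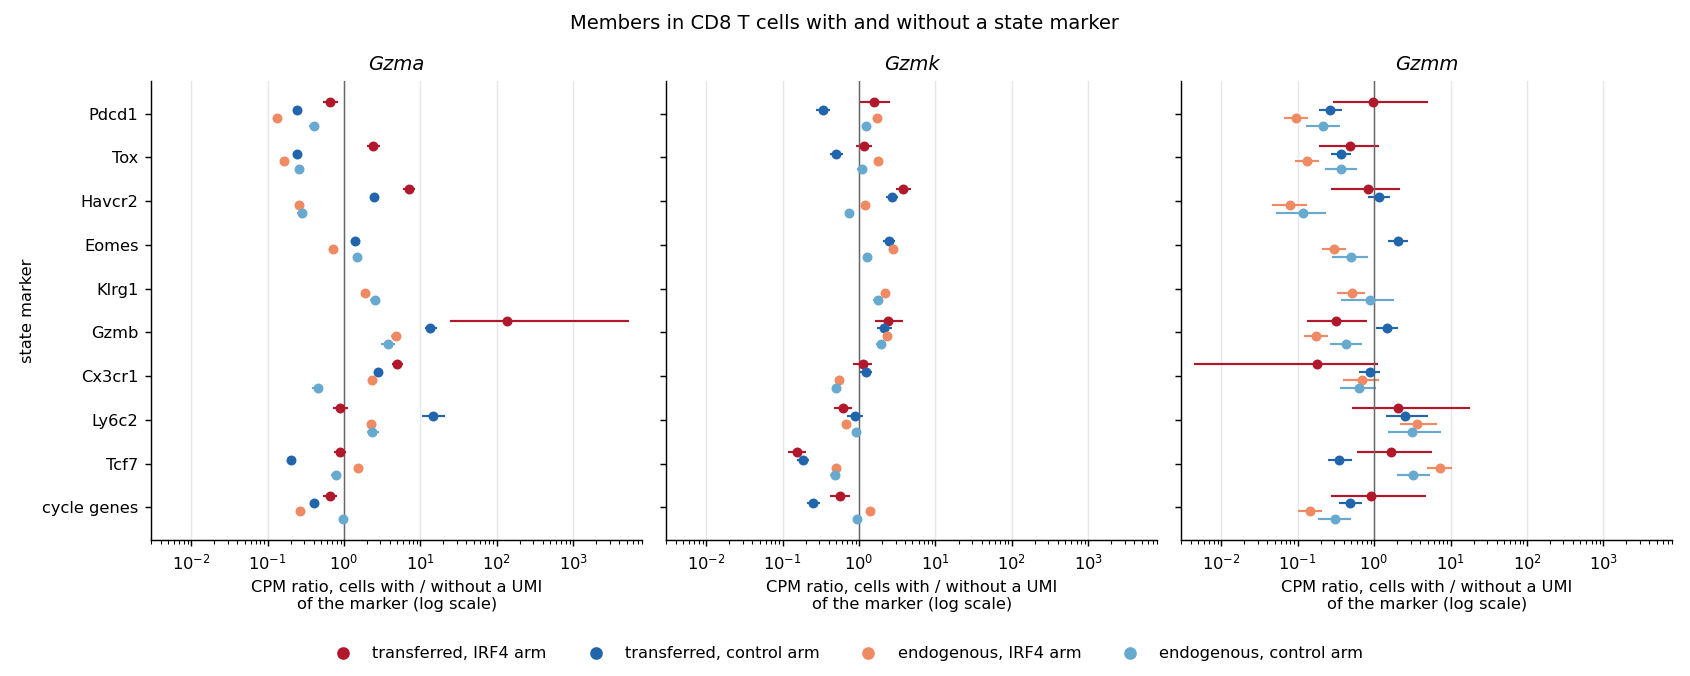
Ratio of CPM between CD8 T cells with and without a UMI of each state marker (log axis) for Gzma, Gzmk and Gzmm, by library, with 95% counting intervals; sets of fewer than 50 cells are not shown. Gzmk lies below 1 for Tcf7 and above 1 for Gzmb in all 4 libraries, and Gzma lies below 1 for Pdcd1 in all 4.

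The arm difference of Gzmk was also seen inside these sets of cells. Among endogenous CD8 T cells the IRF4 to control ratio was at least 1.5 in 20 of 20 sets with or without a marker, from 1.54 to 3.73. Among transferred cells it was so in 17 of 18 sets. The exception was cells without Pdcd1, at 15.1 against 18.3 CPM, a ratio of 0.825 (0.507 to 1.29), whereas cells with Pdcd1 had 23.8 against 6.13 CPM. Gzma in endogenous cells was above 1 in 20 of 20 sets and at least 1.5 in 11. It was 1.17 (1.07 to 1.29) in cells with Pdcd1 and 3.53 (3.20 to 3.91) in cells without, at 636 against 180 CPM. In transferred cells Gzma was above 1 in 7 of 18 sets. The sets share cells, so these counts are a description.

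A list of 25 genes of the granule pathway showed how the other parts of the killing machinery stood. In transferred CD8 T cells 18 were measured and only Gzmb was called, with 6.7% of all genes called there, higher with IRF4 at 804 against 337 CPM, a ratio of 2.39 (2.33 to 2.44). The list's median log2 ratio was 0.03, against 0.01 over all genes. Prf1, the perforin gene, was 33.5 against 26.2 CPM there, which was not a call. In endogenous CD8 T cells 23 were measured, 0 were higher and 7 lower with IRF4, with 5.27% of all genes lower, and the medians were -0.35 and 0.02. The lower genes were the granzymes Gzmf (71.4 against 382 CPM), Gzme (29.2 against 91.5), Gzmc (221 against 544) and Gzmd (105 against 178), the serpins Serpinb9b (16.7 against 64.4) and Serpinb6b (136 against 210), and Cst7, the gene of cystatin F. Serpins of this family inhibit granule proteases. Single cells carried much of the granzyme values: 1 IRF4 cell held 3373 of 3623 Gzmd UMIs, 1 held 3002 of 7633 Gzmc UMIs and 2 control cells held over 50% of 3771 Gzmf UMIs. Gzmb was 1133 against 986 CPM, a ratio of 1.15.

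In NK cells 0 of 23 measured list genes were higher and 5 lower with IRF4, against 1.78% and 2.31% of all genes, and the medians of list and all genes were both -0.04. The 5 were Gzmc (589 against 1095 CPM) and Gzmd, Gzme, Gzmf and Gzmg. All 5 rested on single control cells, which held 2586 of 3265 Gzmc UMIs, 2101 of 2126 Gzmd UMIs, 295 of 296 Gzme UMIs, 2316 of 2319 Gzmf UMIs and all 2004 Gzmg UMIs. In CD4 T cells 8 of 17 were higher and 0 lower, against 10.1% and 7.46% of all genes, with medians of 0.58 and 0.10. Serpinb6b led them (135 against 47.8 CPM), followed by Ctsw, the gene of the protease cathepsin W (210 against 104), Gzmb (123 against 61.2) and Serpinb9 (69.2 against 37.6), whose product inhibits granzyme B. The remaining genes named by the rule, Stx11 (29.0 against 17.9), which encodes a syntaxin of granule release, and Serpinb1a (32.7 against 20.4), had lower interval bounds of 1.01 and 1.03. In double-negative T cells with NK receptors 8 of 21 were higher (7.5% of all genes), among them Serpinb9b (112 against 22.8 CPM), Serpinb6a (20.6 against 5.70) and Gzmb (385 against 206), while of the higher Gzmc, Gzmd and Gzme single cells held 1234 of 1946, 381 of 382 and all 211 UMIs. In the other double-negative T cells 3 of 17 were higher (5.35% of all genes), Gzmb (124 against 53.4 CPM), Serpinb6b (103 against 62.5) and Serpinb9 (85.3 against 55.3).

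Between transferred and endogenous CD8 T cells the list had 0 genes higher and 10 lower of 23 in the IRF4 arm and 0 higher and 12 lower of 23 in the control arm. Of all genes 9.82% and 12.4% were lower. Lamp1, a gene of the granule membrane, was 104 against 92.7 CPM and 124 against 121. The list's median log2 ratios were -0.41 and -0.64, against -0.07 and -0.08 over all genes. The 6 genes farthest from a ratio of 1 were the same in both arms: Gzmc (34.1 against 221 CPM with IRF4 and 46.6 against 544 for controls), Gzmd, Gzme, Gzmf, Gzmg and Serpinb9b. Gzmd, Gzme and Gzmg had 0 UMIs in transferred IRF4 cells. Between NK and CD8 T cells 6 were higher and 6 lower in the IRF4 arm and 8 and 2 in the control arm, against 19% and 17.4% and then 18.1% and 14.1% of all genes, so that the IRF4 counts lay near the share of all genes. In the IRF4 arm Gzmd, Gzme, Gzmf and Gzmg were the farthest from 1, all lower in NK cells, followed by Serpinb9b (86.0 against 16.7 CPM) and Serpinb9 (475 against 108), both higher. Few CD8 T cells set the levels of these 4 granzymes: the cell with the most UMIs held 3373 of 3623 Gzmd, 632 of 1008 Gzme, 535 of 2461 Gzmf and 625 of 628 Gzmg UMIs. In the control arm Gzmg, Gzmd and Gzmf were higher through the single NK cells named above, Serpinb9 (423 against 154 CPM) and Serpinb6b (454 against 210) were higher and Serpinb6a was lower (37.2 against 82.7).

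The genes most like each granzyme over 22 points, each a gated type of 1 library with at least 50 cells, were ranked by Pearson's r of log2(CPM + 1) among 5275 genes. For Gzma they were Adamts14 (r = 0.931), Itga2, Ncr1, Zfp512 and Klra8. Ncr1 is an NK marker of the gates, which set its pattern over these points in part. Klra8, an NK receptor gene, was 539 and 510 CPM in NK cells and 5.80 and 0.203 CPM in endogenous CD8 T cells. For Gzmk they were Cxcr6 (r = 0.828), a chemokine receptor gene of tissue T cells, Ms4a4b, Tox, Sh2d1a and Fam78a. Cxcr6 did not share the arm difference, at 393 CPM in endogenous IRF4 and 565 CPM in endogenous control CD8 T cells. For Gzmm they were Samd3 (r = 0.879), Klrc2, Dapk2, Ugcg and Klre1, of which Klrc2 and Klre1 encode NK receptors. Gzma and Gzmm had r = 0.797, Gzmk and Gzmm 0.667, and Gzma and Gzmk 0.498. Points of a library share its depth and free RNA. With at least 200 cells a point (16 points), 0, 2 and 0 of the 5 genes remained for Gzma, Gzmk and Gzmm, the 2 being Cxcr6 and Tox.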

How the data were processed

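Cells of 4 libraries, 1 per group by the labels, were analysed. The deposited tables hold raw, whole-number counts of UMIs for each gene and barcode. The authors used Cell Ranger 3.0.2, STAR 2.6 and mm10, per the submitters' processing notes. The annotation they counted against and the number of animals behind a library are not given in the sources used here. Per the labels' protocols a 10x 3' kit of version 3 was used, and the same text speaks of a nucleus suspension although cells were sorted; barcodes were treated as cells.

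Barcodes with at least 1000 UMIs, 500 genes and at most 10% mitochondrial UMIs were kept. They were gated on marker UMIs (T: Cd3d, Cd3e, Cd3g; CD8: Cd8a, Cd8b1; NK: Ncr1, Klrb1c, each at 2 UMIs; Cd4, Foxp3, B and myeloid lists). Cells of more than 1 lineage were left out as mixed, which is how doublets were treated; no doublet caller was run. Of the kept cells 13376 entered a class and 1120 were mixed. Levels are CPM, summed UMIs per 1000000 UMIs of the gated cells, with exact Poisson intervals; ratios have exact conditional binomial and shares Clopper-Pearson intervals. Shares were also taken with each cell thinned to 2000 UMIs, which left out 2 transferred control CD8 T cells and 5 and 3 NK cells. A limit of 3 counts was used where no UMI was seen. A gene was called at a ratio of 1.5 or its inverse, with 1 CPM added to both sides, at least 10 CPM in either library and at least 100 cells in each. Genes named are the 3 granzymes, at most 6 called genes per comparison of the granule list by distance from a ratio of 1, the 5 most alike genes (at least 50 CPM in 1 point; ribosomal, mitochondrial, predicted and receptor segment genes left out) and the state markers, of which 1 is not reported here. Cst7, the seventh called gene in endogenous CD8 T cells, Prf1 and the spread of single granzymes over cells were added after the values were seen, as were the NK receptor split and the alternatives named as such. Lamp1 and the genes given for cells of no class were also named outside the rule for genes. The granzymes and gene lists were chosen with earlier results of these data known. Counting and calling were tested on simulated data. Python 3.11.15, numpy 2.4.6, scipy 1.17.1, pandas 2.3.3 and matplotlib 3.10.9 were used.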

Additional observations from a re-analysis of the deposited data

Results flagged for a closer look

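The arm ratios of both tryptases differed between NK cells and CD8 T cells of the endogenous libraries, and the difference was not tested. For Gzma the IRF4 to control ratio was 0.965 in NK cells and 1.58 in CD8 T cells. The CD8 T ratio was 1.10 without cells that had an Ncr1 or Klrb1c UMI. For Gzmk the IRF4 to control ratio was 0.678 in NK cells and 3.04 in CD8 T cells. Over the alternative settings the NK ratio of Gzmk ran from 0.457 to 1.36, on both sides of 1.

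Gzma was also seen in cells that entered no gated class and no comparison. Its level was 636 CPM in 209 such cells of the endogenous IRF4 library, against 49.2 CPM in B cells, 21 of whose 27 UMIs lay in 1 cell. In the endogenous control library it was 152 CPM in 298 cells, against 15.5 CPM in B cells. Of these cells 64 and 36 had a Gzma UMI. They had Nkg7 at 1571 and 1184 CPM, Klrb1c at 88.4 and 85.7, Ncr1 at 28.5 and 37.5 and Trdc, a constant gene of the delta receptor chain, at 79.9 and 48.2 CPM. Lyz2, a myeloid gene, was 248 and 209 CPM in them, and 265 and 302 CPM in the cells of no class without a Gzma UMI. Il7r was 71.3 and 53.6 CPM with Gzma and 132 and 185 CPM without, and Gata3 was 48.5 and 53.6 with and 7.47 and 2.80 without. In the cells with Gzma, Cd3d, Cd3e and Cd3g, which the gates limit, had 7, 1 and 4 UMIs and 2, 0 and 3 UMIs. Cd79a, a B cell gene, had 0 UMIs in the cells with Gzma. The gates also limit the other markers here: a cell of no class has fewer than 2 UMIs of Ncr1 and Klrb1c together. Lyz2 and Cd79a are held down in these cells by the myeloid and B gates.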

How the results depend on the processing

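No paired analysis was possible because each group had 1 library and no replicate numbers. No alternative turned a called direction among the 3 genes. Gzmk in CD8 T cells stayed past 1.5 under all 14 alternatives between the transferred arms and all 15 between the endogenous arms. Under these settings Gzma between the transferred arms was 1.25 without the 6% of cells with the most UMIs, 0.772 with cells thinned, 0.715 in cells without a cycle gene UMI, 0.701 as a mean over cells, 0.689 without the top 1% of cells, 0.646 without cells with an Ncr1 or Klrb1c UMI and 0.904 with mixed CD8 T cells kept. Gzmk there was 3.72 without the 6%, 1.81 without cycle UMIs, 2.52 as a mean over cells and 3.74 without the top 1%. Between the endogenous arms Gzma was 2.02, 1.88, 3.91, 1.86, 1.71, 1.10 and 2.16 under the same settings in that order, 1.33 with a mitochondrial limit of 5% and 1.72 with gates at 1 UMI. Gzmk there was 2.70 thinned, 2.23 without cycle UMIs, 2.61 as a mean over cells, 3.96 with mixed cells kept and 2.87 with the limit of 5%. In NK cells Gzma ranged from 0.933 (gates at 4 UMIs) over 0.988 (1 UMI; also 0.988 without cycle UMIs), 0.9997 (median-ratio size factors), 1.02 (without the 6%; also 1.02 without the top 1%) and 1.03 (as a mean over cells) to 1.03 (thinned). Gzma in CD4 T cells was 4.09 to 37.4 over the settings. The percent of genes past 1.5 rose without the filter on low levels to 11.1 in NK cells and 33.3 in CD4 T cells. It rose to 34.0 in double-negative T cells with NK receptors and to 19.9 in the other double-negative T cells. With 5 CPM added it was 2.38 in NK cells and 5.55 in the other double-negative T cells. The settings on cells with NK receptors, on mixed cells, on shared barcodes and on B cell UMIs were chosen after seeing the data. With 1 library a group no spread between animals is known, and Gzmm is limited by its counts.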
